A study of Mus musculus with 8 samples.

Results

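The homologous recombination, Fanconi anemia, mismatch repair and damage checkpoint genes were examined as 1 set of 47 genes, which were picked by pathway and with earlier results of these data known. Of these, 44 had an array row with their symbol alone, out of 22180 genes with such a row. Rad54b and Fanca share their rows with a second gene, Xrcc2 has no row named here, and the 3 were not analysed here. Only Atr had more than 1 row, and its brighter row was taken. RNA came from 8 whole mammary tumors, 1 array each, of MMTV-PyMT mice, in which the mouse mammary tumor virus promoter drives the polyoma middle T oncogene in mammary epithelium. In 4 tumors (cKO) the mice were MMTV-Cre+/Mmp14(f/f), so that Cre under the same viral promoter acted on floxed alleles of the membrane-anchored protease Mmp14, and 4 tumors (WT) came from Mmp14(f/f) littermates without Cre. Both groups carried MMTV-PyMT and the floxed alleles, were congenic FVB/NJ and were 3 to 4 months old, and the tumors were taken intact from inguinal and thoracic glands and were labelled as biological replicates 1 to 4. The groups differ in the Cre transgene as well as in Mmp14, and stromal cells were part of each sample. Which cells lost Mmp14 was not measured here.

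Homologous recombination copies an intact sister chromatid to mend a broken one. Brca1 and Bard1 help to resect the ends, Palb2 and Brca2 prepare them for strand exchange, and further factors such as the Rad54 family assist that step. The Fanconi anemia core complex puts ubiquitin on the Fancd2 and Fanci pair at crosslinked DNA, which brings in nucleases and the recombination proteins. The kinases Atm and Atr, with Chek1 and Chek2 downstream, hold the cell cycle while damage is mended. Many genes of these pathways are transcribed most strongly in cells that copy their DNA, under E2F factors, and inherited loss of several of them predisposes to breast cancer.

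Most of the repair genes had a higher signal in cKO tumors, and no single gene passed the test over all genes. Of the 44 measured members, 39 were higher in cKO and 5 lower, and the median difference was 0.27 on the log2 scale (cKO minus WT), beside 0.023 over all 23521 tested rows, of which 56.5% were higher. None had an adjusted p below 0.05 (limma, Benjamini-Hochberg over all rows; 0.0085% of all rows passed), and the lowest adjusted p among them was 0.142. At an unadjusted p below 0.05, limma found 20 members higher and 1 lower, the former 45.5% of the 44, where 5.54% of all rows were higher and 4.14% lower. In 13 members, or 29.5%, every cKO tumor lay above every WT tumor, as in 3.68% of all rows, and in none did every cKO tumor lie below, as in 1.73% of all rows. The largest differences were those of the checkpoint kinase Chek1 (0.84), the exonuclease Exo1 (0.76) and Brca1 (0.73), and the lowest that of Fancf (-0.29). A mean signal of at least 5 was reached by 31 members and by 10186 rows in all, of which 51.6% were higher, 8.11% were higher at an unadjusted p below 0.05 and 4.96% lay wholly above WT.

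**Figure D1:**
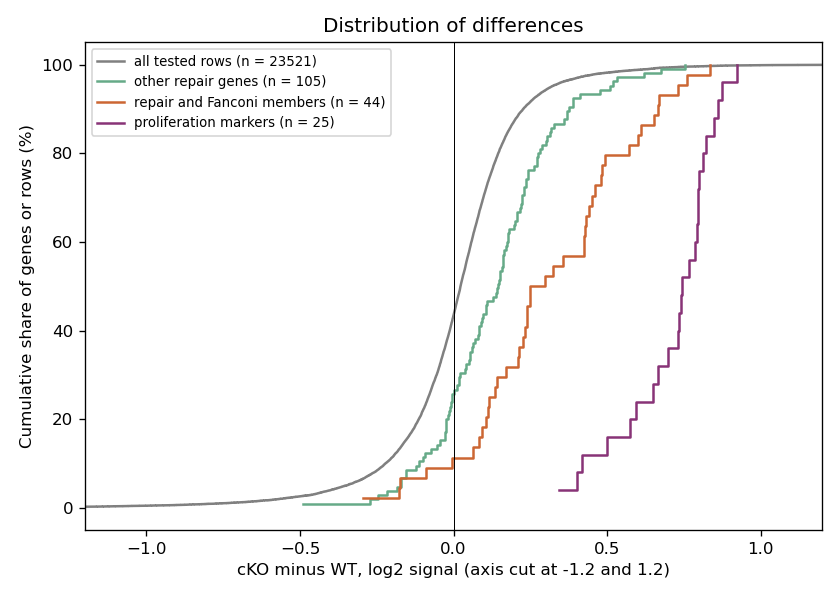
Cumulative share of genes or rows (percent) against the difference cKO minus WT in log2 signal, for all 23521 tested rows, 105 other repair genes, the 44 members and 25 proliferation markers; the axis is cut at both ends. The members' curve lies to the right of that of all rows, with a median of 0.27 against 0.023, and to the left of the proliferation markers, with a median of 0.74.

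The targeted gene and the luminal markers were looked at as a check of the labels. Mmp14 stood at 9.12 ± 0.19 across WT tumors and 7.72 ± 0.22 across cKO tumors (SD, n = 4 each), a difference of -1.40 (SE 0.13, adjusted p 0.0444, limma), with all cKO tumors below all WT tumors. That call was lost under the blocks on replicate number (adjusted p 0.353, limma) and on array number (adjusted p 0.0708, limma). It was also lost without WT 1, WT 2, WT 3, WT 4, cKO 2 or cKO 4. Of the 8 luminal markers, Epcam, Krt8, Krt18, Cdh1 and Cldn3 had group means above 10. Krt19 was at 8.36 in WT and 7.21 in cKO, Cldn4 at 8.28 and 8.27, and Cldn7 at 7.67 and 7.59. The fibroblast marker Postn was at 10.76 in WT, so such a signal does not single out luminal cells. Array medians lay between 3.64 and 3.71, and the correlation of any array with any other, over rows, was between 0.976 and 0.989. No background signal was used here, so a member near the array median, such as Fancc (3.16 in WT and 3.28 in cKO), was not shown to be expressed. In bulk tumors fewer cells of a type and less RNA per cell cannot be told apart.

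The promoters of the members were searched for short words known from cell cycle genes. A RefSeq promoter entry (GRCm38.p6) of 300 bases, from 250 before to 50 after the first listed start, matched 39 of the 44 members by gene ID. It was searched on both strands for the E2F-type word TTCCCGC and its variants, which are first TTCGCGC, then also TTGCCGC, and last of all TTGGCGC. The cell cycle homology word TTTGAA with its variant form TTCGAA was searched too, as was the CCAAT box. These words were chosen after the differences were known, and words can overlap one another. An E2F word was found in 21 of 39 members (53.8%), in 12.2% of 17492 promoters of protein-coding genes, and in 16.3% of the 4062 of those whose GC share lay within the interquartile range of the members' (56.3% to 63.3%). It was found in 33.7% of 86 promoters of other repair genes and 33.3% of 21 of the proliferation markers. The cell cycle homology words were in 12.8% of the members, 18.2% of protein-coding promoters and 61.9% of the proliferation markers, and CCAAT was in 51.3%, 39.0% and 81.0%. The 21 members with an E2F word had a median difference of 0.43, and the 18 without one of 0.22, with ranges of -0.29 to 0.84 and -0.091 to 0.67 that overlap. A match is a description of letters and not of a bound site.

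The promoters of the 5 members with the smallest p and of the member with the lowest difference are shown 5′ to 3′, with the searched words in capitals.
Ddias, chr7:92874198-92874497, strand minus: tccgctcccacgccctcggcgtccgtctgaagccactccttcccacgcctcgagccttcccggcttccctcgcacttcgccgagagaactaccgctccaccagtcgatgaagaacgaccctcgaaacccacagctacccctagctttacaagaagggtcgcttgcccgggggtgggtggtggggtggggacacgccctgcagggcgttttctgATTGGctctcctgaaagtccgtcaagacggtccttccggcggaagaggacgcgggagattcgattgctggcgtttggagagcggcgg
Topbp1, chr9:103305077-103305376, strand plus: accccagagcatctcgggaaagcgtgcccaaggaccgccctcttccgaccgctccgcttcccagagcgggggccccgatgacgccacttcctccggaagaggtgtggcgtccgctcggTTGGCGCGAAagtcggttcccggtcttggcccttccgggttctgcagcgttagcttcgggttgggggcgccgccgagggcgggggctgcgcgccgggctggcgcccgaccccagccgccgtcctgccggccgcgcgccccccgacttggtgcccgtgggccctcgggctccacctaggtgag
Dna2, chr10:62946779-62947078, strand plus: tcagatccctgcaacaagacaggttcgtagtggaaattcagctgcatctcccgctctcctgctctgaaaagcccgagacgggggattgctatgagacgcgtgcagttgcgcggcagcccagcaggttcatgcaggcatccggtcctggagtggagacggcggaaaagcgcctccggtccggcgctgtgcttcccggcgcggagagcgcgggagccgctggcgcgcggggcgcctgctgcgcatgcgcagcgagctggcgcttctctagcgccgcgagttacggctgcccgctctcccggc
Rad54l, chr4:116123641-116123940, strand minus: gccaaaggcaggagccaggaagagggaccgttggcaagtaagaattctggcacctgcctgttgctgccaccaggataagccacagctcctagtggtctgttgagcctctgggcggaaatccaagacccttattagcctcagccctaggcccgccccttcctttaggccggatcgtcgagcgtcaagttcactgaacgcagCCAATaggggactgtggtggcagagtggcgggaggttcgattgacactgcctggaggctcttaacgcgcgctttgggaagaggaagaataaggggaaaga
Neil3, chr8:53639016-53639315, strand minus: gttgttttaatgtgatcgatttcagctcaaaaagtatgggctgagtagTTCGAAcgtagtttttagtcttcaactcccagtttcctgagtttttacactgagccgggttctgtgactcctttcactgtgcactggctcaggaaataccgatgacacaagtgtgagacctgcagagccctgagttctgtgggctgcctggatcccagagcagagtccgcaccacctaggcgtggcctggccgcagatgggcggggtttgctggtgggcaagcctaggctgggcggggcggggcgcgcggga
Fancf, chr7:51862218-51862517, strand minus: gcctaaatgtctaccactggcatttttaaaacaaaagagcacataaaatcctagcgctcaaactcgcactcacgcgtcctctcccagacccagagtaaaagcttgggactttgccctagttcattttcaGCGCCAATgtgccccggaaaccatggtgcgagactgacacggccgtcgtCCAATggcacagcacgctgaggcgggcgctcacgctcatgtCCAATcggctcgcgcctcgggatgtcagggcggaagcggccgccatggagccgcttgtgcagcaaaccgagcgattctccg

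Among these, Topbp1 holds 2 E2F words that overlap, 132 bases before its start, and Ddias and Rad54l each hold a CCAAT box. Dna2 has none of the words in this window, although its difference was 0.67. Fancf, the member with the lowest difference, holds an E2F word that overlaps 1 of its 3 CCAAT boxes, so the letters alone did not separate members that were higher from those that were lower.

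Of the other 19 members with an E2F word, the 11 that the rule for named members picks are shown, each by its word or overlapping words (capitals) within a stretch reaching up to 10 bases to each side of the first, to let the near-identical letters of genes with unlike differences be compared.
Brca1, chr11:101551918-101551944, strand minus: ctagcgctagGCGCCAAgcggccggtt
Rad51ap1, chr6:126939559-126939585, strand minus: ctggttttcgGCGGGAAttgaaaccgc
Bard1, chr1:71103164-71103190, strand minus: gccgctcagtTTCCCGCtcaggaagtt
Fanci, chr7:79392346-79392372, strand plus: gtggagtagaGCGGGAAttttggaagg
Msh6, chr17:87975056-87975082, strand plus: cctcccgactTTCCCGCcagcggcggc
Chek1, chr9:36726609-36726625, strand minus: gcaggttttgGCGGGAA
Clspn, chr4:126556991-126557017, strand plus: ccgcgtctggGCGCGAAagctcgaact
Polq, chr16:37011786-37011812, strand plus: gaagatggagGCGGGAAgatggaggcg
Pms2, chr5:143910001-143910027, strand plus: gagagcggcaGCGCCAActctcccgcg
Msh3, chr13:92355188-92355214, strand minus: gccgtcaagtTTGGCGCGAAatcgcag
Chek2, chr5:110839821-110839847, strand plus: gggattagccGCGGGAAaccaagacgt

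Rad51ap1, Fanci, Chek1, Polq and Chek2 carry the same 7 letters, and their differences ran from 0.25 to 0.84. Msh3, with a difference of -0.18, carries the same overlapping words as Topbp1, with one of 0.48.

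Homologous recombination genes were mostly higher in cKO tumors. Of 12 listed members 10 were measured, 9 were higher and 1 lower, with a median of 0.34. At an unadjusted p below 0.05 (limma) 5 were higher (50%), beside 5.54% of all rows. Brca1, the ubiquitin ligase subunit that starts repair by recombination, had log2 signals of 4.87, 5.13, 4.89 and 4.53 in WT 1 to 4 and 5.61, 5.16, 5.80 and 5.78 in cKO 1 to 4. All cKO tumors lay above all WT tumors, although cKO 2 exceeded WT 2 by a narrow margin, and the difference was 0.73 (SE 0.17, adjusted p 0.215, limma). Its partner Bard1 ran at 4.33, 4.67, 4.26 and 3.85 in WT and 4.51, 4.79, 4.83 and 4.96 in cKO. WT 4 was the lowest and cKO 4 the highest, the groups overlapped through WT 2, and the difference was 0.49 (SE 0.17). Rad54l, a motor protein that assists strand exchange, gave 4.45, 4.74, 4.65 and 4.54 in WT and 5.37, 4.97, 5.08 and 5.56 in cKO. Here the groups did not overlap, and the difference of 0.65 (SE 0.14, adjusted p 0.196, limma) corresponds to 1.57-fold (95% confidence interval 1.27 to 1.94) of the WT signal. Rad51ap1, which stimulates strand exchange, stood at 4.10, 4.46, 3.98 and 4.33 in WT and 4.55, 4.68, 4.70 and 4.66 in cKO, again without overlap. The cKO tumors were close together, at 4.65 ± 0.068 (SD, n = 4), and the difference was 0.43 (SE 0.11).

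Rad51b, Rad51c, Rad51d and Xrcc3, which assist strand exchange, had differences of both signs. Rad51c was higher by 0.45 (SE 0.17) and Rad51b by 0.24 (SE 0.11), both with overlap between the groups. Rad51d, which had the lowest difference of the homologous recombination group, gave 6.67, 6.85, 6.55 and 6.45 in WT and 6.48, 6.25, 6.61 and 6.49 in cKO. Its WT and cKO tumors overlapped and the difference was -0.18 (95% confidence interval -0.43 to 0.078). Xrcc3, also of these 4, differed by 0.11. The mediators Brca2 and Palb2, which act on resected DNA, differed by 0.25 (95% confidence interval -0.31 to 0.81) and 0.13 (-0.10 to 0.37). Brca2 was lowest of all tumors in cKO 2, at 5.18, and highest in cKO 4, at 6.45, so that cKO tumors lay on both sides of WT.

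**Figure D2:**
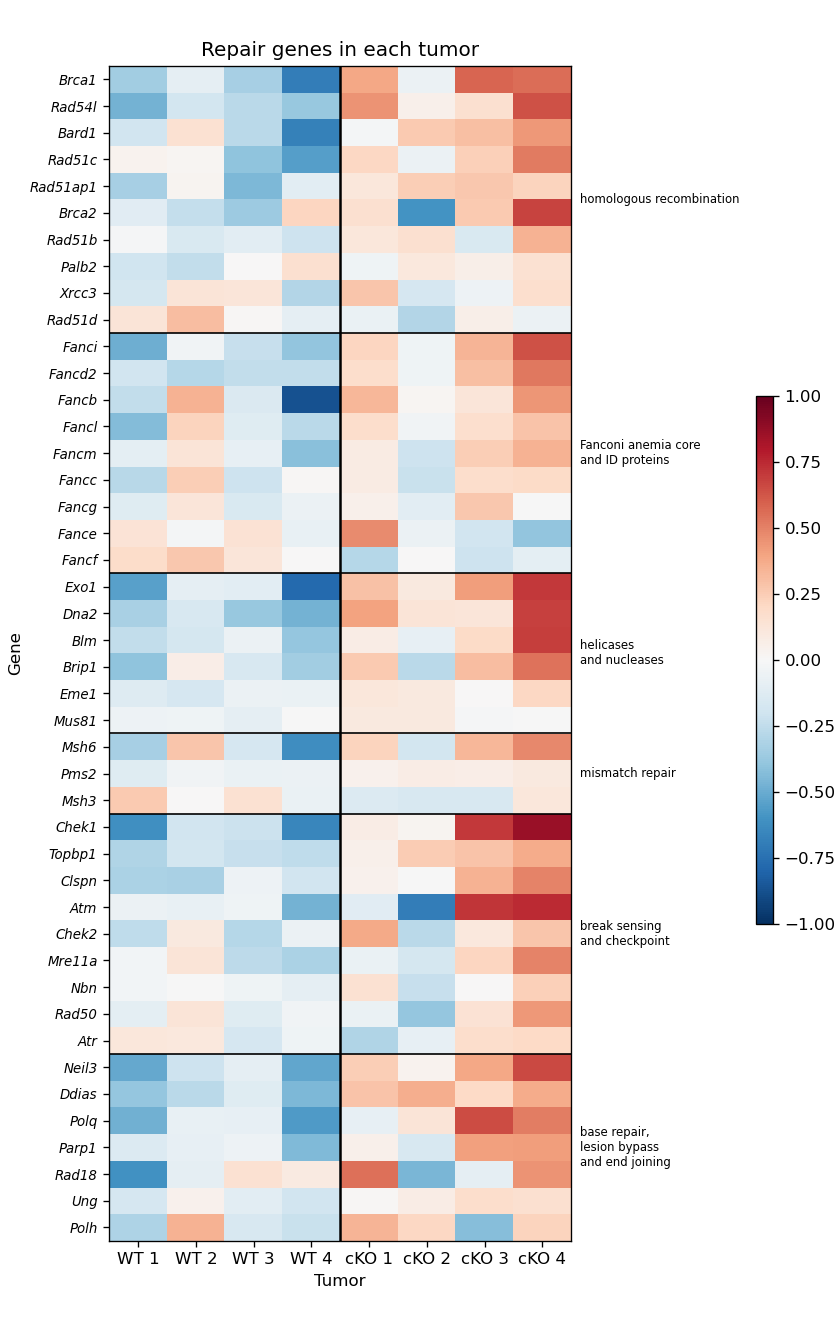
Log2 signal of each member minus its mean over the 8 tumors (colour scale from -1 to 1), for 44 genes in rows, grouped by role and ordered by difference, and 8 tumors in columns. Red is above and blue below the gene's own mean; cKO 4 was the highest tumor in 28 members and WT 4 the lowest in 18, and cKO 2 was the lowest in 6.

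In the Fanconi anemia group, the pair that receives ubiquitin was higher and the core complex was mixed. Of 10 listed members 9 were measured, 7 higher and 2 lower, with a median of 0.23. At an unadjusted p below 0.05 (limma) 2 were higher (22.2%) and 1 lower, beside 5.54% and 4.14% of all rows. Fancd2 gave 5.50, 5.41, 5.45 and 5.45 in WT and 5.87, 5.65, 5.99 and 6.22 in cKO. The WT tumors were nearly equal, all cKO tumors lay above them, and the difference was 0.48 (SE 0.12, adjusted p 0.244, limma). Its partner Fanci ran at 4.35, 4.81, 4.61 and 4.44 in WT and 5.05, 4.80, 5.18 and 5.47 in cKO. Only WT 2 reached into the cKO range, above cKO 2 by a margin smaller than the SE, and the difference was 0.57 (SE 0.15). Among core proteins, the ubiquitin ligase Fancl had 5.54, 6.19, 5.85 and 5.70 in WT and 6.14, 5.94, 6.14 and 6.25 in cKO. WT 2 lay within the cKO range, and the difference of 0.30 had a 95% confidence interval of -0.022 to 0.62. Fancf, an adaptor of the core complex, was lower, with 5.45, 5.54, 5.39 and 5.27 in WT and 4.97, 5.27, 5.05 and 5.17 in cKO. The difference was -0.29 (SE 0.10, adjusted p 0.383, limma) with overlap through WT 4 and cKO 2, and was the 1 member lower at an unadjusted p below 0.05. The other core members Fancb, Fancc, Fance and Fancg differed by 0.46, 0.11, -0.091 and 0.11. Fancm, the translocase that anchors the complex on DNA, differed by 0.23, and for these 5 the 95% confidence intervals held 0.

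Helicases and nucleases that unwind or cut repair intermediates were all higher in cKO. The 6 members had a median difference of 0.43. At an unadjusted p below 0.05 (limma) 5 were higher (83.3%), beside 5.54% of all rows. Exo1, which resects broken ends and also acts in mismatch repair, gave 5.51, 5.96, 5.95 and 5.28 in WT and 6.35, 6.15, 6.47 and 6.76 in cKO. All cKO tumors exceeded all WT tumors. The difference of the group means was 0.76 (SE 0.18, adjusted p 0.239, limma), or 1.69-fold (95% confidence interval 1.27 to 2.26). Dna2, a second resection nuclease that also trims replication flaps, had 4.70, 4.86, 4.64 and 4.55 in WT and 5.42, 5.15, 5.15 and 5.71 in cKO. The gap between the groups exceeded the SD of either, with a difference of 0.67 (SE 0.14, adjusted p 0.19, limma). Eme1 and Mus81 together form a nuclease, and their differences were the smallest of this group. Eme1 stood at 3.82, 3.78, 3.89 and 3.88 in WT and 4.06, 4.04, 3.96 and 4.16 in cKO, without overlap. The difference of its group means was 0.21 (SE 0.076), at a signal close to the array median. Mus81 was at 5.62, 5.63, 5.58 and 5.67 in WT and 5.77, 5.77, 5.66 and 5.67 in cKO, with overlap and a difference of 0.092 (95% confidence interval -0.069 to 0.25). The helicases Blm, which dissolves crossed strands, and Brip1, which works with Brca1, were higher by 0.43 (SE 0.16) and 0.42 (SE 0.18), both with overlap through cKO 2.

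Mismatch repair genes did not share a direction. Msh6 and Msh3 take part in recognising mismatches and small loops. Msh6 ran at 5.92, 6.53, 6.08 and 5.63 in WT and 6.47, 6.07, 6.59 and 6.73 in cKO, overlapping, with a difference of 0.42 (95% confidence interval -0.034 to 0.88). Msh3 had 7.19, 6.93, 7.08 and 6.86 in WT and 6.79, 6.76, 6.76 and 7.03 in cKO, with 3 cKO tumors below all WT tumors and cKO 4 among them, and a difference of -0.18 (95% confidence interval -0.41 to 0.057). Pms2, which cuts the strand to be replaced, was at 4.12, 4.21, 4.17 and 4.19 in WT and 4.29, 4.32, 4.31 and 4.34 in cKO. The groups did not overlap, and the difference of their means was only 0.14 (SE 0.067), with small spreads in both. None of the 3 had an unadjusted p below 0.05.

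Among break sensors and checkpoint genes, Topbp1, Chek1 and Clspn, which act at stalled replication forks, were higher, and the intervals of Atr and of the sensors of double-strand breaks held 0. Of 9 members 8 were higher, with a median of 0.25. At an unadjusted p below 0.05 (limma) 3 were higher (33.3%), beside 5.54% of all rows. Topbp1, the activator of the Atr kinase, had 7.86, 7.98, 7.93 and 7.91 in WT and 8.21, 8.42, 8.44 and 8.53 in cKO. All cKO tumors lay above the narrow WT range, and the difference was 0.48 (SE 0.087, adjusted p 0.142, limma). Chek1, the kinase downstream of Atr, ran at 5.35, 5.77, 5.75 and 5.31 in WT and 6.04, 5.99, 6.67 and 6.82 in cKO. The groups did not overlap, and within cKO tumors 3 and 4 lay well above 1 and 2, with a difference of 0.84 (SE 0.21, adjusted p 0.258, limma), or 1.78-fold (95% confidence interval 1.28 to 2.49). Clspn, the adaptor that lets Atr act on Chek1, was at 5.25, 5.24, 5.52 and 5.38 in WT and 5.61, 5.57, 5.92 and 6.06 in cKO, without overlap and with a difference of 0.44 (SE 0.13). The kinase Atr itself gave 5.91, 5.91, 5.64 and 5.76 in WT and 5.50, 5.72, 5.98 and 6.0 in cKO. It overlapped throughout, with a difference of -0.0048 (95% confidence interval -0.30 to 0.29) whose sign turned to 0.019 after quantile normalization and to 0.0086 after a shift of the arrays to 1 median. Chek2, the kinase downstream of Atm, was at 6.91, 7.27, 6.89 and 7.11 in WT and 7.55, 6.90, 7.27 and 7.45 in cKO, with a difference of 0.25 (95% confidence interval -0.10 to 0.59). Rad50, Mre11a and Nbn, the complex that senses broken ends, differed by 0.063, 0.24 and 0.084. Atm, which this complex activates, had 6.96, 6.94, 6.98 and 6.54 in WT and 6.90, 6.32, 7.73 and 7.76 in cKO. Its cKO tumors lay on both sides of WT, with an SD of 0.70 against 0.21, and the difference was 0.32 (95% confidence interval -0.36 to 1.01).

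**Figure D3:**
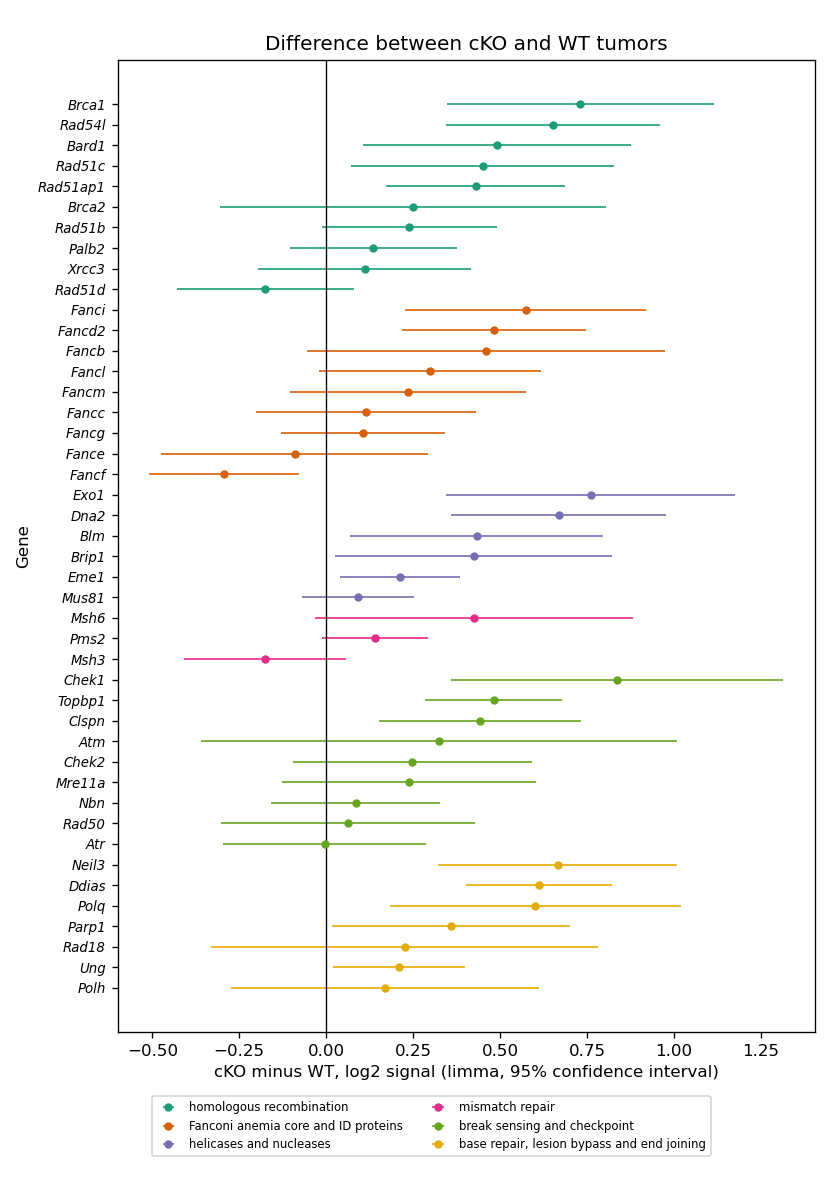
Difference cKO minus WT in log2 signal (points) with limma's 95% confidence interval (bars) for the 44 members, coloured by role. The interval lay above 0 for 20 members, among them Chek1, Exo1 and Brca1, and below 0 for Fancf.

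The members grouped as base repair, lesion bypass and end joining, with Ddias placed among them, were all higher. Their median over 7 was 0.36. At an unadjusted p below 0.05 (limma) 5 were higher (71.4%), beside 5.54% of all rows. Ddias, an anti-apoptotic gene induced by DNA damage, stood at 5.96, 6.08, 6.22 and 5.90 in WT and 6.63, 6.71, 6.55 and 6.72 in cKO. The gap between the groups exceeded the SD of either, and the difference of 0.61 (SE 0.093, adjusted p 0.142, limma) had the lowest p of all members. Neil3, a glycosylase that removes oxidised bases and opens some crosslinks, had 5.52, 5.82, 5.94 and 5.51 in WT and 6.27, 6.07, 6.42 and 6.69 in cKO. It did not overlap and was higher by 0.66 (SE 0.15, adjusted p 0.212, limma). Polq, the polymerase of microhomology end joining, ran at 3.99, 4.40, 4.39 and 3.90 in WT and 4.39, 4.60, 5.12 and 4.98 in cKO. WT 2 and WT 3 lay at the level of cKO 1, and the difference was 0.60 (SE 0.19). The bypass polymerase Polh gave 6.08, 6.73, 6.23 and 6.17 in WT and 6.72, 6.59, 5.96 and 6.61 in cKO, with cKO 3 the lowest and WT 2 the highest tumor, and a difference of 0.17 (95% confidence interval -0.27 to 0.61). The strand break sensor Parp1 was higher by 0.36 (SE 0.15) and the uracil glycosylase Ung by 0.21 (SE 0.084). Rad18, the ligase that starts lesion bypass, differed by 0.23 (95% confidence interval -0.33 to 0.78).

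The members differed between tumors of the same group. A score, the mean over the 44 members of each tumor's log2 signal minus that gene's mean over the 8 tumors, was -0.21, -0.0051, -0.13 and -0.28 in WT 1 to 4 and 0.13, -0.059, 0.19 and 0.36 in cKO 1 to 4. The scores of cKO 1, 3 and 4 were above all WT tumors, and that of cKO 2 was below WT 2. In the checkpoint group cKO 2 scored -0.17, lower than WT 2 (-0.034) and WT 3 (-0.16). Helicases and nucleases kept cKO 2 above all WT tumors, at 0.012 against a highest WT score of -0.10. The group of base repair, lesion bypass and end joining did so too, at 0.027 against -0.046. Without cKO 2 the median difference of the members was 0.42 and 20 members did not overlap, in place of 0.27 and 13. Without cKO 4, the tumor with the highest score, the median was 0.19 and 13 did not overlap. The count without overlap cannot fall when a tumor is left out. By the running number in the array names, which the labels do not call a batch, the gap between cKO and WT scores was 0.14 in arrays 1 to 4 and 0.48 in arrays 5 to 8, each with 2 tumors per group. In the first set 32 members were higher, and in the second 41, and 31 were higher in both. The difference of Brca1 was 0.38 in arrays 1 to 4 and 1.08 in arrays 5 to 8, that of Bard1 0.14 and 0.84, and that of Msh6 0.045 and 0.80.

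The other genes of the repair pathways were compared by lists of their own. Over 105 further repair genes the median difference was 0.14, with 78 higher and 27 lower and none past the adjusted threshold, and 20 were higher and 1 lower at an unadjusted p below 0.05. The higher genes made up 74.3% of the list, and 19.0% at that p, beside 56.5% and 5.54% of all rows. Of 33 further recombination and Fanconi genes 27 were higher, with a median of 0.15. Rpa2, a subunit that coats single-stranded DNA, was higher by 0.62 (SE 0.10, adjusted p 0.142, limma) and Parpbp, an inhibitor of recombination, by 0.67. The resolvase Gen1 was higher by 0.52, and the meiotic gene Mnd1 stood at -0.49. Of 15 further checkpoint genes 11 were higher, and Timeless and Tipin, which form the fork protection complex, differed by 0.75 (adjusted p 0.142, limma) and 0.33. Rnf168, a ubiquitin ligase at breaks, differed by 0.22 and the mitosis-delaying kinase Wee1 by -0.17. All 4 further mismatch repair genes were higher, with the replication clamp Pcna at 0.48, the ligase Lig1 at 0.39, Pms1 at 0.22 and Mlh3 at 0.083.

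Over the remaining repair pathways the medians ran from 0.013 to 0.18. Over all rows the median was 0.023, and 56.5% were higher. Nucleotide excision repair, which removes bulky lesions, had 9 of 17 higher with a median of 0.013, close to that of all rows. Gtf2h3, a subunit of its helicase complex, was at 0.37 and Gtf2h1 at 0.16, while Xpa was at -0.17 and Uvssa at -0.27. Non-homologous end joining had 8 of 11 higher, with a median of 0.14, Nhej1 at 0.41, Tdp2 at 0.24 and the polymerase Polm at -0.22. In base excision and single-strand break repair 13 of 15 were higher, with a median of 0.18, the flap nuclease Fen1 at 0.37, the scaffold Xrcc1 at 0.27, Neil2 at 0.38 and Parp3 at -0.25. For lesion bypass it was 6 of 10, or 60%, close to the share of all rows, with a median of 0.077. Usp1, which takes ubiquitin off Fancd2, was at 0.24, the polymerases Poli and Rev1 at 0.24 and 0.17, and Rev3l at -0.19.

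Targets of p53, the factor that the damage kinases activate, had a smaller median than the members, and their score differed in sign among cKO tumors. Of 20 measured 14 were higher (70%, beside 56.5% of all rows), with a median of 0.072. At an unadjusted p below 0.05 (limma), 2 were higher (10%) and 1 lower. Of all rows 5.54% were higher and 4.14% lower at that p, so these 2 counts lay near the shares over all rows. Eda2r was higher by 0.56 (SE 0.12) and the death receptor Tnfrsf10b by 0.31, while the anti-proliferative gene Btg2 stood at -0.55. The score of the list was 0.084, 0.09 and 0.12 in cKO 1 to 3, above all WT tumors (-0.043 to -0.017). In cKO 4, where the members' score was highest, it was -0.17, the lowest of the 8 tumors.

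Proliferation markers were higher in cKO too. All 25 measured markers were higher in cKO, by a median of 0.74, 24 at an unadjusted p below 0.05 and 21 without overlap, and none past the adjusted threshold. Of all rows 5.54% were higher at that p and 3.68% lay wholly above WT. Mcm5, of the replicative helicase, was higher by 0.80 (adjusted p 0.0795, limma), the cyclin Ccne1 by 0.79, the mitotic kinase Plk1 by 0.70 and the mitotic factor Foxm1 by 0.34. Their score was -0.35 ± 0.14 across WT tumors and 0.35 ± 0.17 across cKO tumors (SD, n = 4 each), and each cKO tumor, from 0.24 to 0.60, was above each WT tumor, from -0.53 to -0.21. In cKO 1 to 4 the marker score was 0.29, 0.24, 0.28 and 0.60, and the members' score 0.13, -0.059, 0.19 and 0.36. In WT 1 to 4 the marker score was -0.53, -0.21, -0.28 and -0.40, and the members' score -0.21, -0.0051, -0.13 and -0.28. The gap between cKO and WT marker scores was 0.63 in arrays 1 to 4 and 0.78 in arrays 5 to 8. The part of proliferation in the members' differences was not tested.

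**Figure D4:**
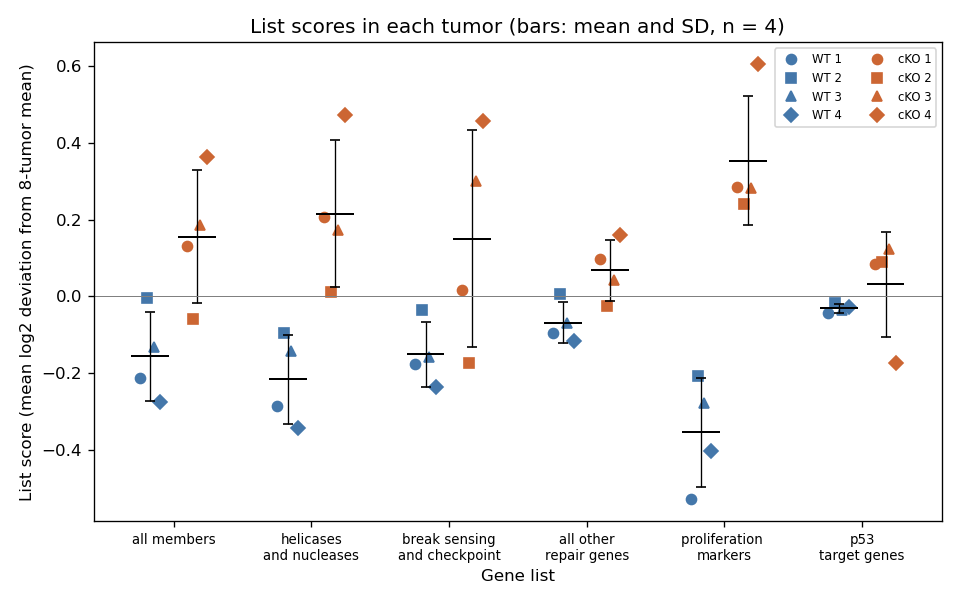
List score (mean log2 deviation from the 8-tumor mean) of each tumor for 6 gene lists, WT in blue and cKO in orange, with a marker shape per replicate number and black bars for the group mean and SD (n = 4). The groups overlap for all members, where cKO 2 is at -0.059, and are apart for the proliferation markers.

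Epithelial, stromal and immune marker lists had median differences of both signs, and none of their genes passed the adjusted threshold. At an unadjusted p below 0.05 (limma), 4 fibroblast, 1 luminal and 1 basal marker were lower and 5 macrophage markers higher. Of all rows 4.14% were lower and 5.54% higher at that p. The WT and cKO score ranges overlapped in each of these lists. All 8 fibroblast markers were lower in cKO, with a median of -1.14 and scores from -1.88 to 0.58 in cKO and from 0.15 to 0.74 in WT. In cKO 1 to 4 the fibroblast score was 0.082, -0.77, -1.88 and 0.58, and the members' score 0.13, -0.059, 0.19 and 0.36. Of 8 macrophage markers 6 were higher, with a median of 0.39 and scores from -0.12 to 0.23 in cKO and from -0.22 to 0.084 in WT. Luminal epithelial markers were lower in 7 of 8, with a median of -0.12 and scores from -0.34 to 0.22 in cKO and from -0.17 to 0.51 in WT. Basal, endothelial, T cell, B cell, adipocyte and skeletal muscle markers had medians of -0.12, -0.25, 0.015, -0.015, 0.12 and -0.44. The part of the cell makeup in the members' differences was not tested.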

How the data were processed

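Total RNA (400 ng per tumor, per the labels' protocols) was labelled with the GeneChip WT Plus kit and hybridised to Affymetrix arrays. The deposited values are log2 signals. Per the submitters' processing notes they were made with RMA, whose steps are background correction, normalization of the arrays to each other and a summary of probes, and limma is named too. Neither is named there with a version. Of 41345 rows, 23521 carried a single symbol per the platform annotation, 1814 had several and 16010 are unnamed here. Symbols of 23328 were updated by gene ID through RefSeq's GRCm38.p6 table. All 23521 entered a fit without covariates of cKO minus WT by lmFit and eBayes (limma 3.58.1, R 4.3.3; two-sided), with Benjamini-Hochberg adjustment over all of them and a threshold of 0.05. The fit was run on simulated rows with planted changes and independent normal noise, a simpler setting than the tumors. The outcome of that run is not given here. A gene was represented by its row of highest mean signal. The number of arrays limits the precision, and dim rows can understate a change. Lists are described by counts, medians and scores and were not tested. The members and lists were chosen with earlier results of these data known. Named members are, per role group, the 3 or 4 with the smallest p and the 1 with the lowest difference; for each other list they are the 3 with the smallest p and the lowest, except that Mmp14 and members described by role in passing were added. The alternatives were quantile normalization, arrays shifted to 1 median, a filter on dim rows, a trend and robust prior, blocks on replicate or array number, arrays 1 to 4 or 5 to 8 alone, the mean of a gene's rows, and each tumor left out.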

Additional observations from a re-analysis of the deposited data

Results flagged for a closer look

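In 88 groups of 4 tumors over the members, 2 held a tumor far from the other 3, where chance gives about 1 in 20. Msh3 was at 7.03 in cKO 4, with the other cKO tumors between 6.76 and 6.79. Atm was at 6.54 in WT 4, with the other WT tumors between 6.94 and 6.98. Of 52 groups of list scores, 3 held such a tumor. The score of proliferation markers was 0.60 in cKO 4 and between 0.24 and 0.29 in the other cKO tumors. The score of p53 target genes was -0.17 in cKO 4 and between 0.084 and 0.12 in the others. The score of further base excision and single-strand break repair genes was -0.038 in cKO 2 and between 0.12 and 0.13 in the others.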

How the results depend on the processing

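The count of members higher in cKO (39 of 44) lay between 39 and 41 in the alternatives that kept all members, apart from arrays 1 to 4 alone (32). The filter on dim rows left 34 members, 29 of them higher, and says nothing about the rest. No member passed the adjusted threshold in the main analysis or in any of the 17 alternatives with a test, and 15 to 25 were higher at an unadjusted p below 0.05, apart from arrays 1 to 4 alone, where it was 8, and the filter on dim rows, where it was 14. The median difference of the members was 0.54 in arrays 5 to 8 alone and ran from 0.19 to 0.42 with 1 tumor left out. Members without overlap numbered 13 to 20 with 1 tumor left out, a count chosen after seeing the data, with the highest without cKO 2. This count can only stay or rise with fewer tumors, so it does not measure stability. The share over all rows was not counted with 1 tumor left out. With 1 tumor left out, 41 of 44 members kept the sign of their difference in every fit; Atr, Fance and Rad50 did not. In 18 members, none of them past the threshold, the difference moved by over 1.5 times or changed sign in some such fit; for Atm it ran from 0.13 to 0.61, for Brca2 from 0.067 to 0.49, for Fancb from 0.24 to 0.65, for Blm from 0.27 to 0.53 and for Rad18 from 0.062 to 0.42. The Mmp14 difference was -1.13 in arrays 1 to 4 and -1.66 in arrays 5 to 8, and from -1.48 to -1.30 with 1 tumor left out. It was -1.40 with the replicate block (adjusted p 0.353) and with the block on array number. Same-numbered tumors correlated in their deviations from the group means by -0.021, -0.20, 0.29 and -0.24, and differently numbered ones by -0.34 to 0.37. The deviations are centred within each group, so these values cannot decide whether the numbers pair the tumors. The labels do not state a pairing. With the replicate block 0 rows passed over all genes, and 15 members were higher at an unadjusted p below 0.05. With the array number block 1 row passed, and with 1 tumor left out 0 to 3. Atr, at -0.0048, turned to 0.019 after quantile normalization, 0.0086 after the shift to 1 median and 0.29 in arrays 5 to 8, and ran from -0.072 to 0.095 with 1 tumor left out. Rad51d was 0.043 in arrays 5 to 8. The causes were not tested, and 4 tumors per group limit what single genes can show.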
